A study of Mus musculus with 8 samples.

Results

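Voltage-gated sodium and calcium channels were examined in the cochlea of mice deleted for a pair of microRNA genes, Mir183 and Mir96. The genes were taken by symbol: Scn followed by a number and a or b, and every Cacna, Cacnb and Cacng gene. The group itself was chosen with earlier results of these data known. Array features linked to exactly 1 symbol represented 36 such genes (39 features) out of 22180 genes (23521 features), and 1 feature per gene was used, that with the greatest average signal. They comprised 8 pore-forming sodium channel (alpha) genes, 3 sodium channel beta genes, 10 pore-forming calcium channel (alpha1) genes, 4 alpha2delta, 3 calcium channel beta and 8 gamma genes.

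The study compared 4 animals of the genotype miR-183/96 KO with 4 animals labelled as controls, which the design text calls wild type, all at postnatal day 16 with no treatment given in the labels. Each array was hybridised with RNA of the whole bony cochlea, both ears of 1 animal together. Sensory cells, neurons, glia, lateral wall, bone, marrow and any attached muscle were therefore read at once, and fewer cells of a type cannot be told apart from less RNA per cell. The labels give no strain, no sex and no origin of the knockout allele.

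Sodium channel alpha subunits open on depolarisation and carry the rising phase of the action potential, and beta subunits set their gating and place them in the membrane. Calcium channel alpha1 subunits couple depolarisation to transmitter release, contraction or gene expression, while alpha2delta and beta subunits bring the pore to the surface. Inner hair cells release glutamate through an L-type channel whose pore is encoded by Cacna1d, and the auditory nerve fires at nodes of Ranvier and heminodes rich in the Scn8a product. Several gamma genes encode partners of AMPA-type glutamate receptors rather than calcium channel subunits.

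The microRNA sequences are shown first, because the deletion defines the comparison. The mature 5' arms of the deleted pair and of Mir182, their neighbour in the same cluster, are printed with the seed (bases 2 to 8) in capitals; they are RefSeq sequences on the minus strand of GRCm38.p6, at chr6:30169711-30169732 for miR-183, chr6:30169506-30169528 for miR-96 and chr6:30165962-30165986 for miR-182.
miR-183-5p: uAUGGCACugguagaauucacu
miR-96-5p: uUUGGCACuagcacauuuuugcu
miR-182-5p: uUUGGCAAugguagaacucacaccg
The seeds all differ, and the genotype label names miR-183 and miR-96 alone. Target sites of these seeds in the channel transcripts were not analysed here, so no channel gene is called a target or a non-target. The Mir96 feature read 4.01 to 4.31 in the knockout and 5.26 to 6.23 in the control arrays, which matches every genotype label. The Mir183 feature was dim in both groups, at 1.82 to 2.40 in knockout and 2.23 to 2.84 in control arrays (limma adjusted p = 0.398), and Mir182 read 3.46 to 4.23 and 3.33 to 3.81 (adjusted p = 0.364). Of 21 hair cell markers, 10 had a mean signal above the median feature. Correlations between arrays over all single-symbol features lay between 0.961 and 0.984.

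No channel gene passed the test between genotypes. In limma, with Benjamini-Hochberg adjustment over 23521 features and a threshold of 0.05, 0 of 36 channel genes passed, and the smallest adjusted p was 0.301, for Cacng7; 3 features of the whole table passed (0.0128%). At an unadjusted p under 0.05 there was 1 channel gene of 36 (2.78%), against 14.3% of all features; it was lower in the knockout, as were 7.25% of features at that p, and 0 were higher, against 7.04%. The share was 11.6% among features of like mean signal, taken as the 500 nearest each gene in rank of mean signal. Knockout and control values overlapped in all 36 genes, whereas the groups did not overlap at 5.96% of all features. All differences are knockout minus control on the log2 scale; 20 channel genes (55.6%) were below 0, against 47.6% of all features, and 16 above. Their median was -0.0034, against 0.014 over all features.

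On the deposited scaling, the intervals limit how far the channel genes can have differed at the probes. The standard errors ran from 0.10 to 0.20 on the log2 scale. For 34 of 36 channel genes the 95% confidence interval lay within a 1.5-fold difference either way, as it did for 79.8% of all features and 83.3% of those of like signal. The exceptions were Cacng7, with a lower bound of -0.79, and Scn9a, with an upper bound of 0.588 against a limit of 0.585 on the log2 scale. Array signal compresses true ratios in dim features, and the intervals describe probe signal rather than transcript number. They also depend on the scaling of the arrays. After cyclic loess Scn11a was at -0.34 (SE 0.12), Cacna2d1 at -0.25 (SE 0.17) and Cacna1e at -0.25 (SE 0.16). These differences were larger than as deposited, whereas those of Cacng7 (-0.36) and Scn9a (0.044) were smaller.

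**Figure D1:**
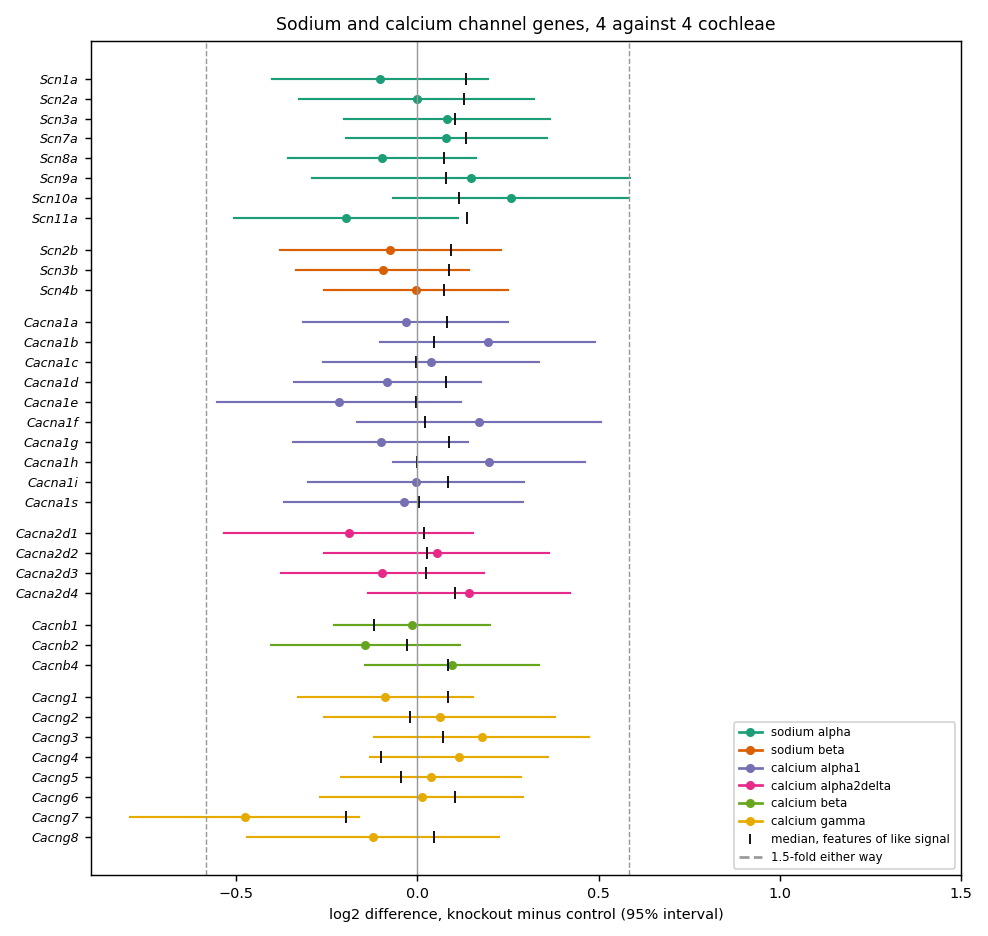
Log2 difference between knockout and control (horizontal axis) for each of the 36 channel genes, coloured by subunit class, with the limma 95% confidence interval (bars), the median difference of features of like signal (black ticks) and a 1.5-fold difference either way (dashed lines). The interval of Cacng7 runs from -0.79 to -0.16 and the other 35 intervals include 0.

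The 4 genes that mark the group, Scn1a, Scn8a, Scn9a and Cacna1d, were examined array by array. Scn1a, an alpha subunit of central and sensory neurons, read 3.79, 3.94, 4.28 and 4.25 in knockout replicates 1 to 4 and 4.03, 4.15, 4.15 and 4.33 in control replicates 1 to 4. Knockout replicates 1 and 2 lay below every control value, and knockout replicates 3 and 4 lay within the control range. The difference was -0.10 (SE 0.14, 95% interval -0.40 to 0.20, limma adjusted p = 0.731). Scn8a, the alpha subunit that predominates at mature nodes of Ranvier and axon initial segments, read 5.02, 5.11, 5.17 and 5.31 in knockout and 5.46, 5.15, 5.29 and 5.11 in control arrays. Its highest value was that of control replicate 1, and the remaining control values lay among the knockout values. The difference was -0.10 (SE 0.12, interval -0.36 to 0.16, adjusted p = 0.704).

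Scn9a, an alpha subunit of peripheral sensory neurons, varied more between animals of a genotype than between genotypes. It read 5.39, 4.68, 4.99 and 5.27 in knockout and 5.25, 4.72, 5.33 and 4.44 in control arrays, with an SD of 0.32 and 0.43. High and low animals occurred in both groups, and its standard error of 0.20 was the largest of the 36 (difference 0.15, adjusted p = 0.734). Cacna1d, the pore of the inner hair cell calcium channel, read 4.80, 5.06, 4.99 and 4.95 in knockout and 5.02, 4.84, 5.22 and 5.06 in control arrays. Control replicate 3 was the highest and knockout replicate 1 the lowest, and the other 6 values were interleaved. Its difference was -0.083 (SE 0.12, interval -0.34 to 0.18, adjusted p = 0.750). On the same arrays 1 of 21 genes of the hair cell list fell, against 0.0128% of all features. It was Calb2, the calcium buffer calretinin, which read 5.96 ± 0.26 in knockout and 7.55 ± 0.20 in control arrays (SD, n = 4, limma adjusted p = 0.000752). Whole cochlea RNA was read, so the cells in which Calb2 was lower cannot be told from its value. Of the 21 markers, 11 were above 0 and 10 below. At an unadjusted p under 0.05, 2 were lower and 0 higher (9.52%, against 14.3% of all features).

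Among the other sodium channel alpha genes, the differences ran from -0.20 to 0.26. Scn10a, of tetrodotoxin-resistant currents in pain-sensing neurons, had the highest difference of all 36 channel genes, at 0.26 (SE 0.15, adjusted p = 0.431), with knockout values of 4.46 to 4.90 and control values of 4.17 to 4.82. Scn11a, of persistent current in the same kind of neuron, was the lowest of the alpha genes at -0.20 (adjusted p = 0.515). It read 3.77 to 4.17 in knockout and 4.02 to 4.51 in control arrays. Without control replicate 3, its highest array, the difference was -0.088. After cyclic loess it was -0.34 and after repeated quantile normalization -0.33 (limma adjusted p = 0.422 and 0.444). Scn2a, an axonal subunit of the central nervous system, was at -0.0025, Scn3a, more prominent in the embryonic nervous system, at 0.082, and Scn7a, an atypical sodium-sensing relative found in glia and Schwann cells, at 0.079. Scn1a, Scn9a and Scn7a are adjacent protein-coding genes on chromosome 2, as are Scn3a and Scn2a, and Scn10a and Scn11a are adjacent on chromosome 9, in the RefSeq gene order of GRCm38.p6. The neighbours Scn10a and Scn11a thus had differences of opposite sign, neither of which passed. These paralogs are alike in sequence, and whether probes of 1 gene also bind the RNA of another was not tested.

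The 3 sodium channel beta genes, which encode single-pass membrane proteins with an immunoglobulin-like domain, had differences of -0.10 for Scn3b, -0.075 for Scn2b and -0.0033 for Scn4b. Scn4b, the beta gene with the highest mean signal, read 5.27, 5.12, 5.11 and 5.06 in knockout and 5.32, 5.16, 5.16 and 4.93 in control arrays. The values of both groups were interleaved (SE 0.12, interval -0.26 to 0.25, adjusted p = 0.992). Scn2b and Scn4b are adjacent on chromosome 9.

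**Figure D2:**
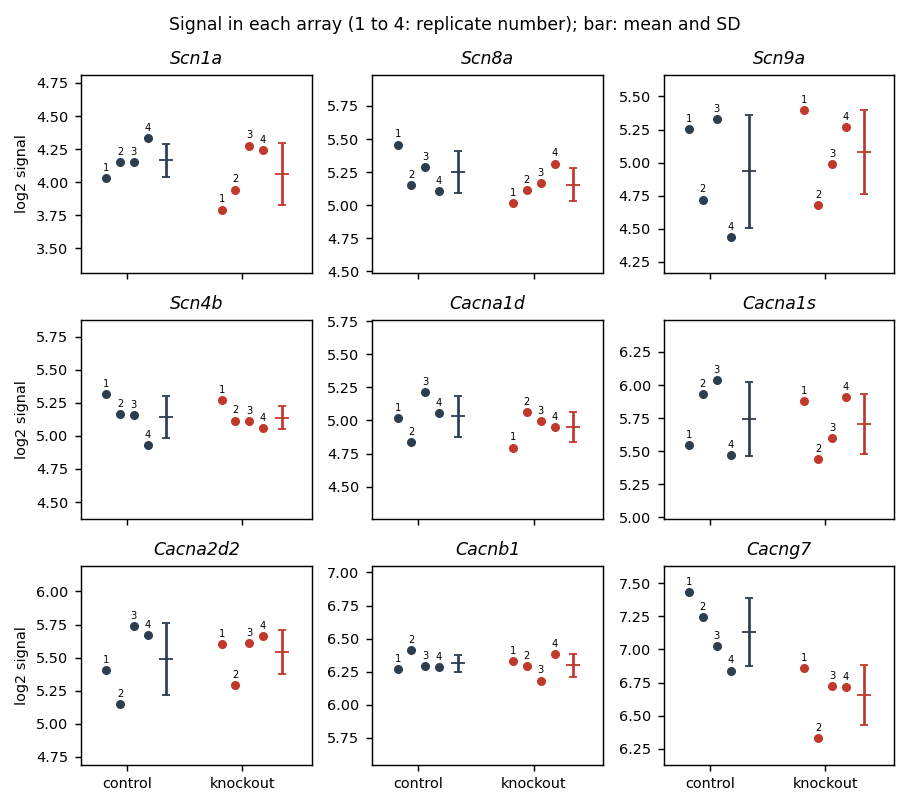
Log2 signal (vertical axis, same height in every panel) in each of the 4 control and 4 knockout arrays for the 9 channel genes described one by one, with replicate numbers beside the points and the mean and SD of each group. Values overlap in every panel, and Cacng7 has the widest gap between means, 7.13 in control and 6.66 in knockout arrays.

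The L-type alpha1 genes other than Cacna1d serve other cells. Cacna1c, of heart, smooth muscle and neurons, was at 0.038, and Cacna1f, of photoreceptor terminals, at 0.17. The presynaptic alpha1 genes Cacna1a, Cacna1b and Cacna1e, which encode the P/Q-, N- and R-type pores of neurons, were at -0.033, 0.19 and -0.22. Cacna1b read 5.37 to 5.59 in knockout and 5.06 to 5.62 in control arrays, and Cacna1e 5.29 to 5.99 and 5.54 to 6.06. The low-threshold T-type genes Cacna1g, Cacna1h and Cacna1i were at -0.10, 0.20 and -0.0036. Genes of 1 functional type therefore lay on both sides of 0, and the adjusted p of these 8 genes ran from 0.448 to 0.992.

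Cacna1s, the voltage sensor of skeletal muscle, was examined together with the other muscle subunits because muscle RNA differed between animals. The mean log2 level of 20 skeletal muscle markers ran from 5.53 to 6.52 in knockout and from 6.27 to 8.13 in control arrays, with the highest value in control replicate 2 and the lowest in knockout replicate 1. Of these markers, 19 of 20 were below 0, against 47.6% of all features, and 0 passed the limma test. At an unadjusted p under 0.05, 7 were lower and 0 higher (35%, against 14.3% of all features). Their median was -0.70, or -0.53 measured from features of like signal. Cacna1s read 5.88, 5.44, 5.60 and 5.91 in knockout and 5.54, 5.93, 6.04 and 5.47 in control arrays. Knockout replicate 1, with the least muscle signal, had a Cacna1s value close to that of control replicate 2, with the most. The difference was -0.039 (SE 0.15, interval -0.37 to 0.29, adjusted p = 0.917). Cacng1, the skeletal muscle gamma subunit, spanned 4.92 to 5.07 in knockout and 4.89 to 5.20 in control arrays, a difference of -0.089 (adjusted p = 0.712).

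Cacna2d1 and Cacnb1, the alpha2delta and beta subunits of the skeletal muscle channel that other tissues also express, had their highest value in control replicate 2. Cacna2d1 read 6.03 in that array and 5.24 to 5.61 in the other 7. Its difference of -0.19 (SE 0.16, adjusted p = 0.570) was -0.027 without that array and 0.011 with the muscle level as a covariate. Cacnb1 read 6.33, 6.30, 6.18 and 6.39 in knockout and 6.27, 6.41, 6.29 and 6.28 in control arrays, with the smallest standard error of the 36 genes (difference -0.015, SE 0.10, interval -0.23 to 0.20, adjusted p = 0.951). Of the muscle channel's partners, Ryr1, the calcium release channel that Cacna1s opens, was at 0.0018 and Stac3, an adaptor of the same complex, at 0.094. The part of muscle RNA in these values was not tested beyond the covariate.

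**Figure D3:**
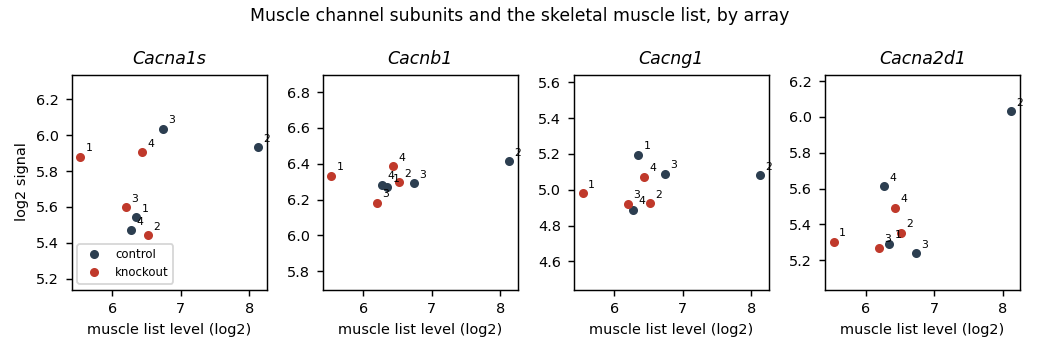
Log2 signal of 4 skeletal muscle channel subunit genes (vertical axis, same height in every panel) against the mean log2 level of the 20 skeletal muscle markers (horizontal axis), 1 point per array with its replicate number. Control replicate 2, at a muscle level of 8.13, is set apart in Cacna2d1 at 6.03, whereas its Cacng1 value of 5.08 lies within the range of the other arrays.

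The remaining alpha2delta genes did not pass. Cacna2d2, the subunit reported with the inner hair cell channel, read 5.60, 5.30, 5.61 and 5.66 in knockout and 5.40, 5.15, 5.74 and 5.67 in control arrays. Replicate 2 was the lowest in both groups, all knockout values lay within the control range, and the difference was 0.053 (SE 0.14, interval -0.26 to 0.36, adjusted p = 0.875). Cacna2d3, which is needed for normal auditory nerve synapses in the brainstem, was at -0.10 and Cacna2d4, of retinal synapses, at 0.14. Of the beta genes, Cacnb2, which inner hair cells need for a normal calcium current, was at -0.14 (SE 0.12, adjusted p = 0.571), with 5.57 to 5.89 in knockout and 5.80 to 6.14 in control arrays. A second Cacnb2 feature of lower signal read 0.087. Cacnb4, the neuronal beta subunit mutated in lethargic mice, was at 0.095, and its second feature, almost equal in mean signal (4.95 against 4.98), at 0.29 (unadjusted p = 0.0382, adjusted p = 0.332). Features of 1 gene thus differed in sign for Cacnb2 and in size for Cacnb4.

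Cacng7 was the channel gene that came closest to the threshold. It encodes a type II partner of AMPA receptors, a family whose members set receptor gating and trafficking. Its signal was 6.86, 6.33, 6.73 and 6.71 in knockout and 7.43, 7.24, 7.02 and 6.84 in control arrays. The groups overlapped by a single pair, knockout replicate 1 at 6.86 and control replicate 4 at 6.84. The difference was -0.48 (SE 0.15, interval -0.79 to -0.16), which is 1.39-fold lower at the probe, with an unadjusted p of 0.00599 and an adjusted p of 0.301 in limma. Features of like signal had a median of -0.20, which leaves -0.28, and after cyclic loess the difference was -0.36 (adjusted p = 0.489). Without knockout replicate 2 it was -0.37 and without control replicate 4 it was -0.57.

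The genes beside Cacng7 and its relatives had differences nearer to 0. On chromosome 7, Cacng8, the next protein-coding gene, was at -0.12 (adjusted p = 0.723), and Cacng6, the one after it, a muscle-type gamma gene, at 0.012. Cacng5, the other type II member, was at 0.038. Among type I members, which include stargazin (Cacng2) and also Cacng8, the differences were 0.061 for Cacng2, 0.18 for Cacng3, 0.11 for Cacng4 and -0.12 for Cacng8. Whether Cacng7 differed from these relatives was not tested. Cacng7 had the highest mean signal of the 36 genes, at the 89.1th percentile of features. Spiral ganglion neuron markers were lower on the same arrays, with 19 of 23 below 0, against 47.6% of all features, and a median of -0.23. Snap25 was the 1 that passed the limma test, as did 0.0128% of all features. At an unadjusted p under 0.05, 9 were lower and 0 higher (39.1%, against 14.3% of all features). In 7 the groups did not overlap, against 5.96% of all features. List levels were 5.55 to 5.82 in knockout and 5.80 to 6.13 in control arrays. Measured from features of like signal, the median of these neuron markers was -0.16. Their part in the Cacng7 value was not tested.

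The sequence upstream of Cacng7 and the pair of Cacna1d start regions are shown to place both genes among the channel promoters. Each is the 250 bases before an annotated RefSeq start on GRCm38.p6, written 5' to 3' on the strand of the gene with every CpG in capitals. The Cacng7 window lies at chr7:3332575-3332824 (plus strand), and the Cacna1d windows at chr14:30353487-30353736 and chr14:30491157-30491406 (minus strand).
Cacng7: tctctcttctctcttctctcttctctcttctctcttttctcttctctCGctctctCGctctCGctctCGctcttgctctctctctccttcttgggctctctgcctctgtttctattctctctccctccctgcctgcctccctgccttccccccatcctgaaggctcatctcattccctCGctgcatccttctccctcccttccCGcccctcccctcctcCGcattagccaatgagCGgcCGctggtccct
Cacna1d at the lower coordinate: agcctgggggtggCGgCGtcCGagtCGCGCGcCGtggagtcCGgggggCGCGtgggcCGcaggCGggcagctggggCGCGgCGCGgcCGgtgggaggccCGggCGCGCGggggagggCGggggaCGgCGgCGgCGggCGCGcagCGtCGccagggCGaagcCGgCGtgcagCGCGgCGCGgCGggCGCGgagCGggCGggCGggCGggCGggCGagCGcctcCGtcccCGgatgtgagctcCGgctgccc
Cacna1d at the higher coordinate: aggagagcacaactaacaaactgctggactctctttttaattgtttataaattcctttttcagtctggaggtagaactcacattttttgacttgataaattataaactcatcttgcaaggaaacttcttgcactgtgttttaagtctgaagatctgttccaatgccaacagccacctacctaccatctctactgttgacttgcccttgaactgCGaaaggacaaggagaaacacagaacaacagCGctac
The Cacna1d windows differ in kind, with 50 CpG and 86.4% G and C in the one and 2 CpG and 39.6% in the other. The latter also holds the letters TATAAA on the printed strand, nearer the upstream end of the window than the start. The single Cacna1d feature gives 1 value for both starts, so the start in use cannot be read from it. Cacng7 holds 9 CpG and 58.0% G and C. Start windows of this length were found for 28 of the 36 channel genes (38 windows), with a median of 8.5 CpG and a range of 0 to 50, against a median of 6.0 over all 32534 windows of the table. TATAAA, searched on both strands, occurred in 2 of 38 channel windows (5.26%), those of Cacna1d and Scn2a, against 12.3% of all windows.

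Differences on these arrays followed the mean signal of a feature, and the channel genes lie in the middle of that range. The median difference was 0.13 in the lowest decile of features by mean signal and -0.21 in the highest. No channel gene lay in either of these deciles, and 11 of 36 lay in the fourth decile, where the median of all features was 0.084 and that of the channel genes -0.033. Measured from features of like signal, the median of the 36 genes was -0.082. As deposited, 55.6% of the 36 differences lay below 0, against 40.0% of those of features of like signal. After cyclic loess, which is meant to remove such a trend, the median of the 36 genes was -0.10 with 24 below 0. The median of all features went from 0.014 to -0.030. Neither the share of all features below 0 nor the remaining trend was measured after cyclic loess. Sodium alpha genes went from a median of 0.038 with 4 of 8 below 0 to -0.10 with 6 of 8, and gamma genes from 0.025 to -0.041. Of the genes that mark the group Scn1a was at -0.25, Scn8a at -0.19, Cacna1d at -0.19 and Scn9a at 0.044, with adjusted p from 0.554 to 0.947.

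**Figure D4:**
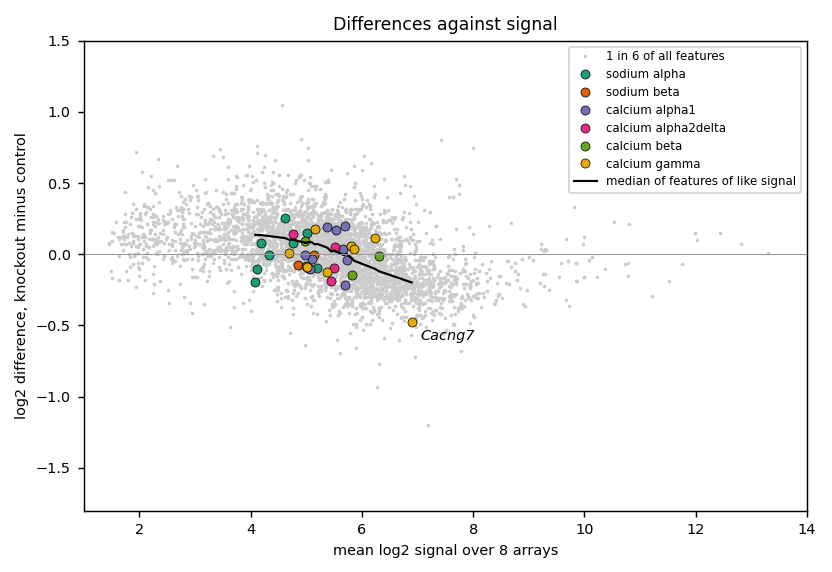
Log2 difference (vertical axis) against mean log2 signal over the 8 arrays (horizontal axis) for 1 in 6 of the 23521 features (grey) and all 36 channel genes (coloured by class), with the median of features of like signal (black line, drawn over the range of the channel genes). Channel genes occupy signals of 4.09 to 6.89 and lie on both sides of the line, with Cacng7 lowest at -0.48.

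Signal strength limits what the arrays can say about sodium channels. All 8 alpha genes and all 3 beta genes of sodium channels had a mean signal below the median feature, with alpha genes between 4.09 and 5.20. As a stand-in for features without cochlear transcript, 1108 olfactory receptor features had a median signal of 3.32 and a 95th percentile of 5.48. No channel gene lay below that median, and 13 of 36 lay above that percentile, none of them a sodium channel gene: Cacna1c, Cacna1e, Cacna1f, Cacna1h, Cacna1s, Cacna2d2, Cacna2d3, Cacnb1, Cacnb2, Cacng2, Cacng4, Cacng5 and Cacng7. Cacna1d, at 4.99, was among the 23 that did not. Probe signal depends on the probes, so this order is not an order of transcript abundance.

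A single control array was often the highest in channel genes. Control replicate 3 held the highest of the 8 values in 12 of 36 channel genes (33.3%), against 10.5% of all features and 13.7% of those of like signal, and control replicate 4 held the lowest in 10 (27.8% against 19.3%). The SD was larger among control than among knockout arrays in 26 of 36 genes (72.2%, against 52.4% of all features), and in 20 of 36 without control replicate 3 (55.6%, against 42.3% of all features). Without that array 0 of 36 genes passed and 4 were at an unadjusted p under 0.05 (11.1% against 23.4% of all features), namely Cacna1b, Cacna1f, Cacng7 and Scn10a.

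Proteins that bind or anchor these channels were read from a pair of lists. Of 30 measured genes for sodium channel partners and nodes of Ranvier, 0 passed the limma test, 6 were lower and 0 higher at an unadjusted p under 0.05 (20% against 14.3% of all features), and the median was -0.15 against 0.014 over all features. Fgf12, an intracellular fibroblast growth factor homologue that binds the sodium channel tail, read 5.95, 5.48, 6.13 and 5.67 in knockout and 6.75, 6.96, 6.47 and 6.79 in control arrays. The groups did not overlap, at a difference of -0.93 (SE 0.15, adjusted p = 0.0868, or 0.0288 without control replicate 3). Its relatives Fgf13 and Fgf14 were at 0.088 and 0.12. Sptbn1, a spectrin of the axonal membrane skeleton, was at -0.37 and Kcna1, a potassium channel beside the node, at -0.34 (adjusted p = 0.301 for both). The groups did not overlap in 4 of the 30 genes, Fgf12, Sptbn1 and Kcna1 among them, against 5.96% of all features. Features of like signal had a median of -0.24 for Sptbn1 and -0.076 for Kcna1. Ank3, the ankyrin that clusters sodium channels at nodes, was at -0.11. The list level was 5.83 to 5.90 in knockout and 5.95 to 6.09 in control arrays. Measured from features of like signal, the list median was -0.098.

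Of 30 measured partners of calcium channels at release sites and in muscle, 1 fell (0.0128% of all features did so) and 0 rose, with a median of 0.0028. At an unadjusted p under 0.05 there was 1 of 30 (3.33%, against 14.3% of all features). The gene that fell was Snap25, the presynaptic fusion protein that also binds calcium channels, which read 7.18 ± 0.31 in knockout against 8.27 ± 0.19 in control arrays (SD, n = 4; difference -1.09, SE 0.15, limma adjusted p = 0.0389). That call was kept in 5 of 19 alternatives, with adjusted p from 0.0126 to 0.489, and was lost when any array other than control replicate 3 or knockout replicate 3 was left out. Cabp2, a calcium-binding modulator of the inner hair cell channel, was at 0.096, and Rimbp2, which ties the channel to the active zone, at 0.23 (adjusted p = 0.402). Gem, a small GTPase that inhibits calcium channels, was at -0.27 and Jph1, which holds the muscle channel at its junction, at -0.23, with adjusted p of 0.389 and 0.383.

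**Figure D5:**
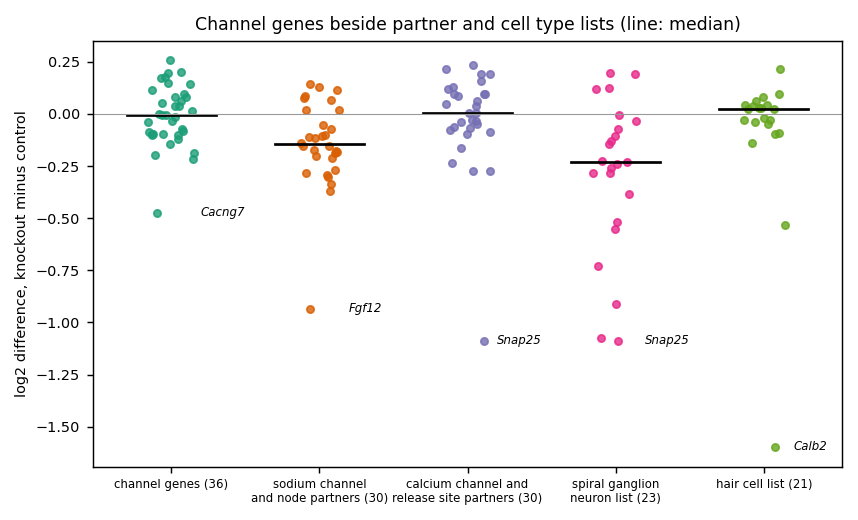
Log2 difference (vertical axis) of each gene in 5 sets: the 36 channel genes, 30 sodium channel and node partners, 30 calcium channel and release site partners, 23 spiral ganglion neuron markers and 21 hair cell markers, with the median of each set as a line. The channel genes span -0.48 to 0.26, while Fgf12 (-0.93), Snap25 (-1.09) and Calb2, the lowest point, lie lower; horizontal scatter has no meaning.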

How the data were processed

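Per the labels, the authors' deposited log2 values are gene-level RMA estimates; the submitters' processing notes name Affymetrix Expression Console and RMA. No version, annotation or genome build is stated. That values are log2 follows from their range, 0.90 to 13.5; the number of arrays limits the precision. Genotypes were compared in limma 3.58.1 (R 4.3.3) with lmFit and eBayes with an intensity trend over the 23521 features linked to 1 symbol, with genotype as the only term, with Benjamini-Hochberg adjustment and a threshold of 0.05. Replicates are separate animals. All 36 channel genes matched the RefSeq gene table of GRCm38.p6, used for gene order. Steps were tested on simulated data.

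The channel genes and all lists were chosen with earlier results of these data known. The rule for named genes was: Scn1a, Scn8a, Scn9a and Cacna1d, any channel gene past a threshold, at an unadjusted p under 0.05 or without overlap, the highest-signal gene of each class, and in each partner list genes past the threshold, the 3 smallest p and 8 set genes. The remaining channel genes are given by level or difference. The remaining cell type lists had 0 genes past the threshold and medians of -0.22 for Schwann cell and myelin (12 genes), -0.14 for smooth muscle and pericyte (12), -0.19 for melanocyte and stria (12) and 0.037 for brain and glia (12). Measured from features of like signal, these medians were -0.083, -0.0098, -0.12 and -0.011 in the same order. At an unadjusted p under 0.05, 3 Schwann cell and myelin genes were lower and 2 higher (41.7%, against 14.3% of all features). In the melanocyte and stria list 3 were lower and 0 higher (25%), and the other lists had 0. In the hair cell list 1 of 21 fell (Calb2), with a median of 0.022. The olfactory receptor comparison was chosen after seeing the data. Alternatives were the replicate block, eBayes without trend or robust, cyclic loess, repeated quantile normalization, median centring, a mean of at least 5, all features, array weights, muscle level or signal range (SD of log2 values) as covariates, other features of a gene, and each array left out.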

Additional observations from a re-analysis of the deposited data

Results flagged for a closer look

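In 3 of 72 groups of 4 channel gene values, 1 array stood apart from the other 3; chance marks about 1 group in 20. Cacna2d2 read 5.30 in knockout replicate 2 and 5.60 to 5.66 in the other knockout arrays. Cacnb1 read 6.41 in control replicate 2, the array with the highest muscle level, and 6.27 to 6.29 in the other controls. Cacnb2 read 6.14 in control replicate 3, the array that held the highest value of 12 channel genes, and 5.80 to 5.82 in the other controls.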

How the results depend on the processing

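No channel gene passed in any of the 19 alternatives run across all features, where the smallest adjusted p of a channel gene was 0.115 (Cacng7 without control replicate 3). Cacng7 kept its sign in all 19, from -0.64 to -0.36. The count of channel genes at an unadjusted p under 0.05 was 2 after cyclic loess and 2 after repeated quantile normalization. These were Cacng7 and Scn11a in both, and Scn11a had the smaller p. The count was 3 with signal range as a covariate, and 1 to 4 with an array left out. Their share was below that of all features in 18 of 19, the exception being signal range (8.33% against 5.95%), which also moved the median of the channel genes to -0.15. Over all features the count of calls was 1 with all features of the table, 8 with array weights (3 higher), 1 with signal range and 1 to 21 with an array left out (21 without control replicate 3, 16 of them higher).

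With the replicate number as a block, 3 features and 0 channel genes passed, and 1 channel gene was at an unadjusted p under 0.05, as without it. Same-numbered arrays correlated at 0.057, 0.21, 0.21 and -0.29 in their deviations from the group means, and 1 of 4 knockout arrays correlated best with its own number. So few arrays cannot decide whether the numbers pair the animals.

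Small differences that did not pass changed sign. After cyclic loess Cacna2d2 was at -0.00062, Cacnb1 at 0.040, Stac3 at -0.0092 and Ryr1 at -0.028, and after repeated quantile normalization Cacnb1 was at 0.025, Stac3 at -0.00013 and Ryr1 at -0.032. Ryr1 was at -0.030 with median centring and -0.022 with array weights, which put Cacna1s at 0.024. With muscle level as a covariate Cacna1s was at 0.040, Cacna2d2 at -0.10, Cacnb1 at 0.026 and Ryr1 at -0.027. With signal range Scn9a was at -0.46, Cacna2d2 at -0.15, Gem at 0.0052, Fgf13 at -0.012, Fgf14 at -0.0047, Cabp2 at -0.078 and Stac3 at -0.12. The second Cacnb2 feature read 0.087. With an array left out Scn4b ran from -0.074 to 0.055, Cacna1s from -0.13 to 0.058, Cacna2d2 from -0.061 to 0.14, Cacnb1 from -0.044 to 0.024, Scn9a from -0.017 to 0.28, Ryr1 from -0.044 to 0.060 and Stac3 from -0.019 to 0.18. Fgf12 passed with array weights (adjusted p = 0.0406) and without control replicate 3 (0.0288). The cause was not tested for any of these.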
